A study of Homo sapiens with 28 samples.

Results

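The chromatin landscape of proliferating IMR-90 ER:Ras fibroblasts was described from 6 peak lists, with 2 libraries for each of 3 antibodies. A region of an antibody was kept when both of its lists held a peak there, after peaks that overlapped by at least 1 bp had been joined on chromosomes 1 to 22 and X. Regions of different antibodies that overlapped were then joined into loci, and each locus was assigned to 1 of 7 combinations of the antibodies. This gave 66651 loci from the 245079 peaks of the 6 lists. The whole series of 28 libraries held 1123337 such peaks.

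IMR-90 is a line of human fetal lung fibroblasts from a single donor, and ER:Ras is an oncogenic Ras fused to a hormone-binding domain, so that 4-hydroxytamoxifen (4-OHT) switches it on and drives the cells into senescence. Binding was mapped with CUT&RUN. The method tethers a micrococcal nuclease to a bound antibody and releases the DNA around it, and the antibodies were to H3K27ac, FOXF1 and phosphorylated c-JUN (p-c-JUN). The proliferating group (Pro) was taken from the sample titles. The tags of the same samples read senescent fibroblast, control siRNA (siCtrl) and 100 nM 4-OHT for 6 days, exactly as for the senescent samples (Sen), so whether the Pro cells received 4-OHT or siRNA cannot be settled from the labels. Every group used here carries the ER:Ras transgene. The senescent group consists of the first 2 libraries per antibody, and FOXF1 was also mapped in senescent cells after siRNA to FOXF1 and FOXF2 (siFOXF1/2). Nothing in the labels says that replicates came from separate cultures or clones, so spreads and p-values cover only the difference between these libraries, which may be technical.

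H3K27ac is an acetyl mark that p300 and CBP place on histone H3 at active enhancers and promoters. FOXF1 is a forkhead transcription factor of the lung mesenchyme, the lineage from which lung fibroblasts arise. c-JUN is a subunit of AP-1, a dimeric factor that binds many enhancers of fibroblasts, and phosphorylation by JUN kinases raises its activity.

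The proliferating lists differed in length by antibody and by library. H3K27ac gave 84304 and 89329 peaks, p-c-JUN 24808 and 32136, and FOXF1 3441 and 11061. The second FOXF1 list was thus 3.21 times as long as the first, whereas the ratio was 1.30 for p-c-JUN and 1.06 for H3K27ac. The log2 number of peaks was higher for p-c-JUN than for FOXF1 by 2.19 ± 0.86 (SE, n = 2 lists each; exact two-sided permutation p = 0.3333, which is the minimum for 2 lists against 2). Every p-c-JUN list was longer than every FOXF1 list. Depth in mapped reads is unknown, and no control library was named. The pileup solved from fold and p-value had a median of 20 fragments at H3K27ac summits in both lists, 12 and 10 at FOXF1 summits and 15 and 13 at p-c-JUN summits.

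Peaks of the mark were wider than peaks of the factors. The median H3K27ac peak was 553 and 539 bp wide in its 2 lists, the median p-c-JUN peak 409 and 392 bp, and the median FOXF1 peak 296 and 284 bp. Averaged over lists, H3K27ac peaks measured 546 ± 9.90 bp (SD, n = 2) and factor peaks 345 ± 64.4 bp (SD, n = 4), a difference of 200.75 ± 32.9 bp (SE; exact two-sided permutation p = 0.0667, the lowest that 15 arrangements allow). The 4 factor lists pool 2 antibodies, whose SDs between their own lists were 8.49 bp for FOXF1 and 12.0 bp for p-c-JUN (n = 2 each). The pooled SD, the SE and the p-value therefore also hold the difference between the factors. The narrowest H3K27ac median exceeded the widest factor median. Fold enrichment at the summit, a value of the authors' peak caller relative to each library's own background, had list medians of 3.89 and 3.78 for H3K27ac, 5.65 and 5.59 for FOXF1 and 6.01 and 6.05 for p-c-JUN. These folds are given as levels of each list and are not compared between antibodies.

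The requirement of a peak in both lists kept the stronger peaks of each antibody. A partner in the other list was found for 77.5% and 73.7% of H3K27ac peaks, 82.1% and 63.4% of p-c-JUN peaks, and 78.4% and 24.4% of FOXF1 peaks. In the longer FOXF1 list, the 2699 peaks with a partner had a median fold of 7.27 and the 8362 without one a median of 5.29. For p-c-JUN these medians were 6.50 and 4.55 in the first list and 7.15 and 4.89 in the second. The result was 63441 regions of H3K27ac that covered 58.8 Mb, 20315 of p-c-JUN that covered 11.0 Mb and 2695 of FOXF1 that covered 1.32 Mb.

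At these list lengths, most loci carried acetylation without either factor. H3K27ac stood in 95.0% of the 66651 loci, p-c-JUN in 30.3% and FOXF1 in 4.04%. H3K27ac alone made up 45633 loci (68.5%), and H3K27ac with p-c-JUN made up 15306 (23.0%). All 3 antibodies met at 1673 loci (2.51%). H3K27ac with FOXF1 was found at 710 loci (1.07%) and FOXF1 with p-c-JUN outside H3K27ac at 183 (0.275%). Of the single factors, p-c-JUN stood alone at 3021 loci (4.53%) and FOXF1 at 125 (0.188%). The FOXF1 counts rest on its shorter library: with the second FOXF1 list alone, loci of all 3 antibodies numbered 5161, those of H3K27ac with FOXF1 4000, those of FOXF1 with p-c-JUN 436 and those of FOXF1 alone 1385. With the second p-c-JUN list alone, loci of p-c-JUN alone numbered 7492. The lead of H3K27ac alone was not kept when all lists were cut to their 3441 strongest peaks by −log10 q. In that setting 1309 loci held H3K27ac alone, 2022 p-c-JUN alone and 1266 FOXF1 alone.

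**Figure D1:**
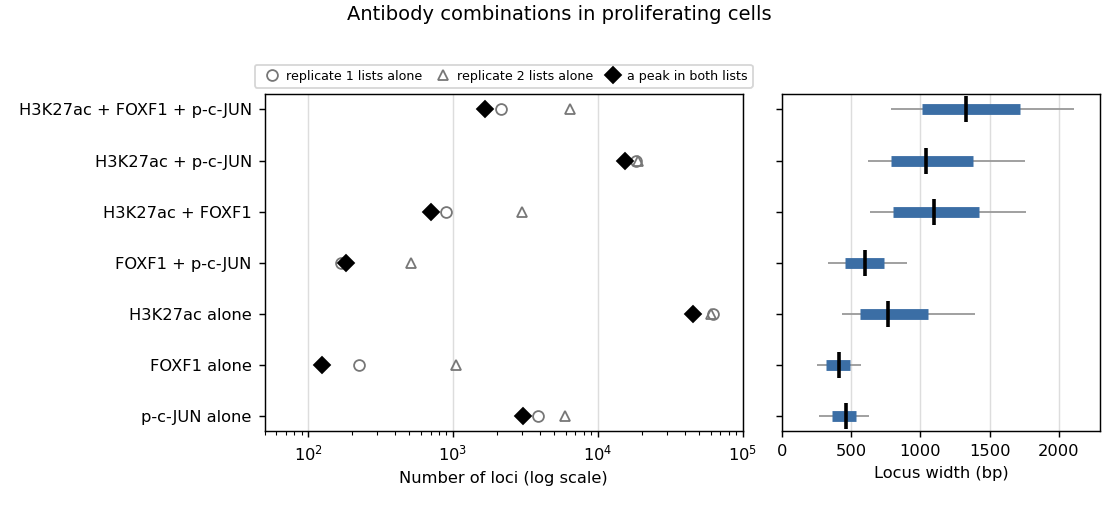
The left panel plots the number of loci per antibody combination on a log scale, with diamonds for loci that need a peak in both lists and open circles and triangles for the first or second replicate lists taken alone. The right panel plots locus width in bp, with the median of each combination and its spread. H3K27ac alone is the most frequent class at 45633 loci, and loci of all 3 antibodies are the widest, with a median of 1329 bp.

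Loci with H3K27ac were wider than loci without it, and among them those with a factor were wider still, which is in part set by the joining of regions. Median widths were 1329 bp for all 3 antibodies, 1097.5 bp for H3K27ac with FOXF1, 1041 bp for H3K27ac with p-c-JUN and 767 bp for H3K27ac alone. Outside H3K27ac they were 601 bp for FOXF1 with p-c-JUN, 463 bp for p-c-JUN alone and 415 bp for FOXF1 alone. The H3K27ac peak itself, which joining across antibodies does not touch, showed a like order. Its width still enters the choice of class, because a wider peak meets an overlap of 1 bp more easily. From the narrowest to the widest 10th of the first H3K27ac list, the share on p-c-JUN regions went from 5.56% to 48.8%. The share on FOXF1 regions went from 0.557% to 10.2%. The part of this selection in the order was not tested. The H3K27ac peak was 1118 and 1055 bp wide (median, 2 lists) at loci of all 3 antibodies and 915.5 and 907.5 bp with FOXF1. It was 858 and 841 bp with p-c-JUN, and 601 and 614 bp where neither factor was present. The lists did not overlap between any of these 4 classes.

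FOXF1 regions, which need a peak in both lists, were the fewest, and most of them overlapped H3K27ac and p-c-JUN regions. For p-c-JUN this did not extend to the peaks of the longer FOXF1 list. Of its 2695 regions, 88.2% overlapped an H3K27ac region, with 85.5% and 83.0% for the peaks of its single lists. An overlap with p-c-JUN was found for 68.4% of FOXF1 regions, with 62.7% of the peaks in the shorter list and 49.97% in the longer. The dependence on the library was therefore larger for p-c-JUN than for H3K27ac. In the opposite direction, FOXF1 reached 3.77% of H3K27ac regions and 9.10% of p-c-JUN regions, values that became 14.4% and 27.1% with the longer FOXF1 list alone.

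p-c-JUN shared most of its regions with the mark as well. Of its 20315 regions, 84.2% overlapped H3K27ac (79.8% and 76.0% of the peaks of the single lists). From the side of the mark, 26.9% of the 63441 H3K27ac regions overlapped p-c-JUN. These shares fell when all lists were cut. When every list was held to its 3441 strongest peaks by −log10 q, the H3K27ac share of FOXF1 regions was 7.03% and that of p-c-JUN regions 8.55%. In that setting 26.4% of FOXF1 regions overlapped p-c-JUN. It keeps the whole first FOXF1 list but only a part of the second and of each p-c-JUN list. Of each H3K27ac list it keeps only a small part. The parts of list length and peak strength were not separated.

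FOXF1 was more frequent on acetylated regions that also held p-c-JUN. Of the 17089 H3K27ac regions with p-c-JUN, 9.77% held FOXF1, against 1.55% of the 46352 without p-c-JUN. Because stronger H3K27ac peaks overlapped the factors more often, each H3K27ac list was cut into 10 classes of equal size by −log10 q. In all 20 classes of the 2 lists the FOXF1 share was higher with p-c-JUN, by 3.83 to 9.44 percentage points, and classes by width gave differences of 3.85 to 12.9 points. In the strongest class of the first list 13.4% of peaks with p-c-JUN and 4.13% of those without held FOXF1, and in the weakest class the shares were 5.29% and 0.186%.

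The factors also met more often on the mark than outside it in most strength classes. FOXF1 was present at 9.69% of p-c-JUN regions with H3K27ac and at 5.95% of those without, and for the peaks of the single lists the shares were 8.83% against 4.13% and 7.79% against 2.87%. Within classes of p-c-JUN strength, the share was higher with H3K27ac in 17 of 20, and the 3 exceptions were among the strongest p-c-JUN peaks. In the strongest class of the first list it was 21.9% with H3K27ac and 24.4% without. Of FOXF1 regions, p-c-JUN was present at 69.5% with H3K27ac and at 60.7% without, with 65.4% against 46.4% and 54.8% against 26.3% for the peaks of the single lists. The share was higher with the mark in 19 of 20 strength classes, and the differences ran from −3.93 to 39.0 percentage points.

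Overlap between the factors rose steeply with their strength, and it also rose with peak width. Between the weakest and the strongest class of FOXF1 peaks, the share on p-c-JUN regions went from 46.7% to 83.7% in the first list and from 31.9% to 74.9% in the second. For p-c-JUN peaks, the share on FOXF1 regions went from 3.02% to 22.1% and from 1.87% to 21.2%. The share of H3K27ac peaks with p-c-JUN spanned 4.26% to 52.9% and 4.18% to 49.4%. Between the narrowest and the widest class, FOXF1 peaks on p-c-JUN went from 55.7% to 83.1% (first list) and from 35.5% to 71.9% (second). By width, p-c-JUN peaks on FOXF1 went from 2.90% to 18.2% and from 2.02% to 19.1%. The parts of strength and width were not separated. FOXF1 peaks differed in their relation to the mark: their share on H3K27ac was 80.9% in the weakest and 84.3% in the strongest class of the first list, and 71.9% and 88.3% in the second.

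**Figure D2:**
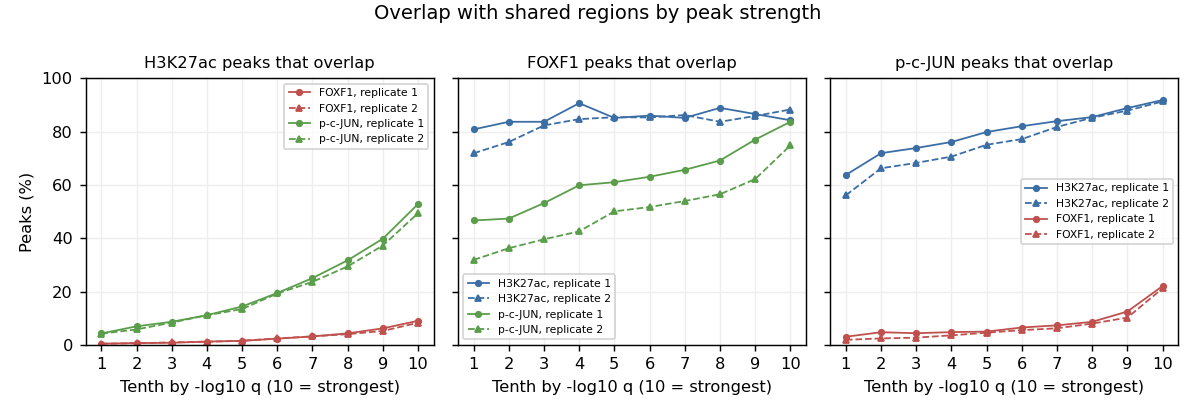
Each panel plots, for the peaks of an antibody, the percent that overlap a region of each other antibody (vertical axis) across 10 classes of equal size by −log10 q (horizontal axis, 10 the strongest), with 1 line per library. FOXF1 peaks on p-c-JUN climb from 46.7% to 83.7% in the first list, while FOXF1 peaks on H3K27ac stay between 71.9% and 88.3% at the ends of both lists.

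Peak strength at a locus differed by combination. p-c-JUN had a median fold of 7.95 and 8.98 (2 lists) at loci of all 3 antibodies, 7.47 and 8.08 with FOXF1 outside H3K27ac, 6.57 and 7.25 with H3K27ac only, and 5.81 and 6.18 where it stood alone. The order was the same in both lists. Fold over 10 was reached by 33.7% and 41.5% of p-c-JUN peaks at loci of all 3 antibodies and by 6.92% and 10.4% of those alone.

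FOXF1 peaks were stronger in the classes that held p-c-JUN. Its median fold was 6.15 and 7.56 at loci of all 3 antibodies and 6.27 and 7.19 with p-c-JUN outside H3K27ac. It was 5.62 and 6.86 with H3K27ac only, and 5.45 and 6.53 alone. Across lists the classes overlap, with means of 6.86 ± 0.992 and 5.99 ± 0.766 (SD, n = 2) for all 3 antibodies and for FOXF1 alone, but within each list both classes with p-c-JUN were above both without it. H3K27ac fold was 4.48 and 4.23 at loci of all 3 antibodies and 4.53 and 4.36 with p-c-JUN. With FOXF1 only it was 4.32 and 4.06, and where neither factor was present 4.05 and 3.98.

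**Figure D3:**
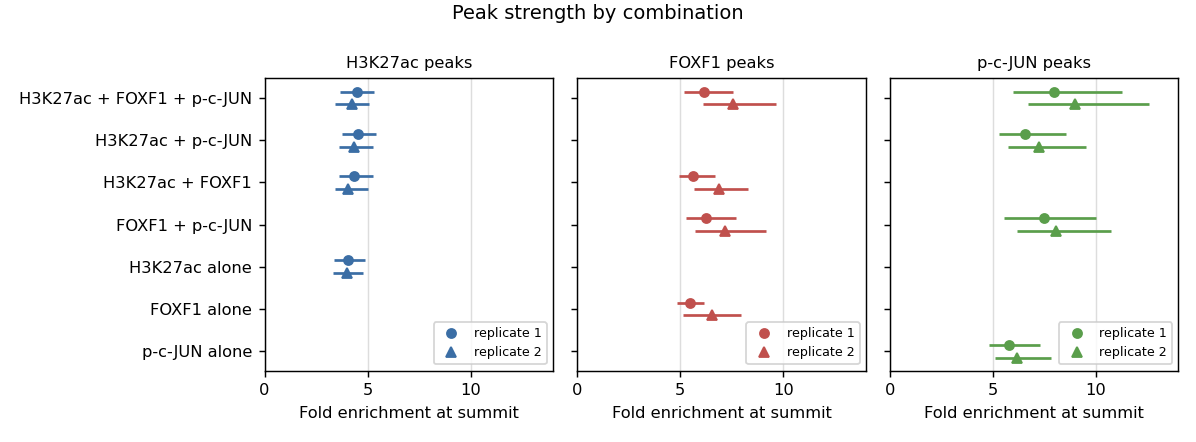
Each panel plots fold enrichment at the summit (horizontal axis) for the peaks of an antibody, by combination, with the median as a point and the interquartile range as a line for each of the 2 libraries. p-c-JUN medians descend from 7.95 and 8.98 at loci of all 3 antibodies to 5.81 and 6.18 where p-c-JUN stood alone, while H3K27ac medians stay between 3.98 and 4.53.

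Strength at the 1673 loci of all 3 antibodies was repeatable for an antibody and only loosely shared between antibodies. Spearman's rho between the 2 lists of an antibody was 0.863 for p-c-JUN, 0.817 for H3K27ac and 0.599 for FOXF1. Between FOXF1 and p-c-JUN lists it was 0.183 to 0.227, and between H3K27ac and either factor 0.0734 to 0.101. These values are across loci, which are not independent samples, and lists of an antibody share the antibody and the cells.

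Where FOXF1 and p-c-JUN peaks overlapped, their summits mostly lay within 100 bp of each other. Overlap by itself bounds this distance, and peaks without overlap were not measured. From a FOXF1 summit to the nearest summit of an overlapping p-c-JUN peak the median distance was 70 to 73 bp over the 4 pairs of lists. Between the 2 FOXF1 lists it was 57 bp, and between the 2 p-c-JUN lists 52 bp. The distance between the factors was longer than that between replicates of either factor in every pair of lists. Among overlapping peaks, 38.4% to 39.6% of FOXF1 summits lay within 50 bp of the p-c-JUN summit, and 78.9% to 79.0% within 200 bp. The share within 50 bp was 46.0% between the FOXF1 lists and 49.2% between the p-c-JUN lists. For regions counted as shared only if the summits of all 4 lists fell within 200 bp, FOXF1 overlapped p-c-JUN at 44.3% of regions instead of 68.4%.

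H3K27ac summits were spread more widely, also between its own lists. From FOXF1 the median distance to the H3K27ac summit was 140 to 172 bp, and from p-c-JUN 135 to 145 bp, against 128 to 130 bp between the 2 H3K27ac lists themselves. At p-c-JUN peaks with FOXF1 the distance to the H3K27ac summit was 162 to 200 bp, and at those without FOXF1 133 to 142 bp. H3K27ac peaks with FOXF1 were also wider, as given above, and the part of width in this distance was not tested. Between FOXF1 and p-c-JUN the distance was 70 to 73 bp on H3K27ac and 48 to 75 bp outside it.

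**Figure D4:**
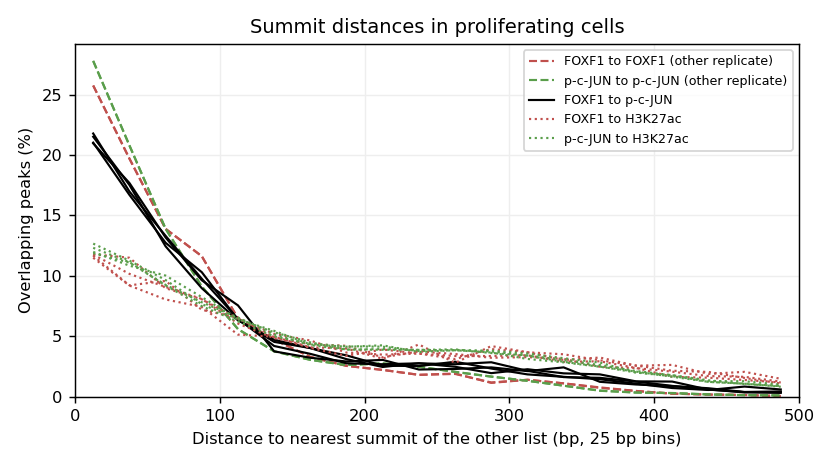
The distance from a summit to the nearest summit of an overlapping peak in another list (horizontal axis, bp, bins of 25 bp) is plotted against the percent of overlapping peaks (vertical axis), with 1 line per pair of lists. Lines between FOXF1 and p-c-JUN fall off more slowly than lines between replicates of a factor (medians 70 to 73 bp against 52 and 57 bp), and lines to H3K27ac are flatter (medians 135 to 172 bp).

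Within an H3K27ac peak the factors kept to the middle, as the H3K27ac summit itself did. Between 79.4% and 83.3% of FOXF1 summits and 73.1% to 77.3% of p-c-JUN summits fell inside an H3K27ac peak of a given list. Of those, 67.1% to 71.8% (FOXF1) and 66.1% to 68.0% (p-c-JUN) lay in the central 50% of the peak. The H3K27ac summit lay there in 67.2% to 68.5% of peaks. Few acetylated loci held several factor regions: 132 held at least 2 of p-c-JUN and 4 at least 2 of FOXF1, with 2 the most.

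Loci of a factor outside H3K27ac often held the mark in a single list. Of the 3021 loci of p-c-JUN alone, 1531 (50.7%) overlapped an H3K27ac peak of 1 list and 1335 (44.2%) overlapped no peak of the other antibodies in any list. Of the 125 loci of FOXF1 alone, 59 (47.2%) overlapped an H3K27ac peak of 1 list, 37 (29.6%) a p-c-JUN peak of 1 list, and 49 (39.2%) no other peak at all. Of the 183 loci of FOXF1 with p-c-JUN, 77 (42.1%) had H3K27ac in 1 list. At a further 41 loci of p-c-JUN alone and 4 of FOXF1 with p-c-JUN, both lists held an H3K27ac peak, but these peaks did not overlap each other and so made no shared region. The absence of an antibody from a combination therefore means that it had no shared region there, not that it was missing. Median distances to the nearest H3K27ac region were 4.73 kb for p-c-JUN alone, 3.94 kb for FOXF1 alone and 4.28 kb for both factors.

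The same limit touches the acetylated classes. Of the 710 loci of H3K27ac with FOXF1, 329 (46.3%) held a p-c-JUN peak in 1 list. Of the 15306 loci of H3K27ac with p-c-JUN, 3733 (24.4%) held a FOXF1 peak in 1 list, against 3550 (7.78%) of the 45633 loci of H3K27ac alone.

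Single loci of these classes are named on build hg19 by rank, not as typical members. By rank of −log10 q in the weakest list, the best loci of all 3 antibodies were chr1:121484173-121485431, chr8:43092770-43093507 and chr7:61968764-61969708. On each chromosome the longest interval without any peak was located, and all 3 loci lie 2 Mb or less from it. All 3 also held a FOXF1 peak after siFOXF1/2. In the whole class of 1673 loci, 2.39% lay that near and 1.79% held such a peak. At chr1:121484173-121485431 the summits of the 4 factor lists lay at 121485208 or 121485209. H3K27ac fold there was 15.7 and 15.2, whereas the list medians were 3.89 and 3.78.

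Away from such intervals, and chosen after the values were seen, chr9:33320266-33321574 (1309 bp) held FOXF1 at fold 11.0 and 14.4, p-c-JUN at 20.5 and 23.2 and H3K27ac at 4.79 and 4.48. The FOXF1 and p-c-JUN summits were 72 and 70 bp apart in the 2 replicates, and the H3K27ac summit was 375 and 406 bp from that of FOXF1. At chr1:229524606-229525641, chosen likewise, FOXF1 had fold 12.3 and 18.1 and p-c-JUN 25.6 and 25.9, with summits 36 and 14 bp apart. Both loci held peaks of all 3 antibodies in every senescent list.

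Among loci of H3K27ac with p-c-JUN, the rule named chr12:68220768-68222393, chr16:75353398-75354952 and chr10:45476180-45477298. p-c-JUN fold was 21.9 and 25.5 at the first, 21.3 and 22.4 at the second and 19.3 and 22.9 at the third. All 3 held a FOXF1 peak in the longer FOXF1 list only, at fold 5.75, 8.65 and 5.93, and its summit lay 32, 9 and 63 bp from that of p-c-JUN. The named loci of H3K27ac with FOXF1 were the mirror case. At chr9:101654274-101655786 FOXF1 had fold 8.90 and 10.5, at chr3:126650429-126651665 9.02 and 12.8, and at chr4:119094435-119096494 8.35 and 10.2, and each held p-c-JUN in 1 list at fold 4.39 to 5.09.

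Outside shared acetylation, chr1:156186232-156186656 had the best rank for both factors, with FOXF1 fold 23.8 and 22.9 and p-c-JUN fold 22.0 and 21.3, and it too held a FOXF1 peak after siFOXF1/2. The next by rank were chr20:26189776-26190368, which lies near a long peak-free interval and held such a peak as well, and chr15:93347066-93347709, which did neither. Each of these 3 loci held an H3K27ac peak in 1 proliferating list, at fold 3.42, 5.22 and 3.52. A locus chosen after the values were seen, chr13:102102308-102103091, had FOXF1 fold 12.8 and 13.6, p-c-JUN fold 24.3 and 24.8, and no H3K27ac peak in either proliferating list. In senescent cells it held H3K27ac in the first list. For p-c-JUN alone the named loci were chr18:21299585-21300108 (fold 18.8 and 23.7), chr21:43430155-43430522 (25.4 and 24.8) and chr11:93869115-93869661 (19.2 and 20.5). Only chr21:43430155-43430522 of these lacked any peak of the other antibodies.

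FOXF1 alone was named at chr2:42133533-42133895 (fold 12.3 and 9.78), chr1:92040394-92041099 (9.40 and 9.32) and chr6:17710602-17710973 (10.1 and 13.1). Only chr1:92040394-92041099 held another peak, H3K27ac in the first list at fold 3.59. H3K27ac alone was named at chr15:34348091-34349165 (9.65 and 10.3), chr22:20193621-20194649 (9.87 and 11.1) and chr1:161123202-161124165 (10.4 and 9.35), and all 3 held a FOXF1 peak in the longer FOXF1 list.

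FOXF1 peaks present after siFOXF1/2 were most frequent at loci of both factors outside H3K27ac. A FOXF1 peak in either of the siFOXF1/2 lists lay at 105 of the 66651 loci (0.158%) and at 78 of the 2691 loci with FOXF1 (2.90%). These lists came from senescent cells, and their lengths, which bound the counts, are not given here. The shares therefore do not measure loss after knockdown. The class of FOXF1 with p-c-JUN outside H3K27ac contributed 46 of its 183 loci (25.1%). All 3 antibodies contributed 30 of 1673 (1.79%), FOXF1 alone 2 of 125 (1.6%) and H3K27ac with FOXF1 0 of 710. The same class also stood out by position, with 39 loci (21.3%) that near to such an interval, against 2.39% for all 3 antibodies, 4.8% for FOXF1 alone and 1.33% to 2.12% for the other classes. The part of position in these counts was not tested. With these peaks left out, the class numbered 137 loci (no siFOXF1/2 peaks) or 144 (none near a peak-free interval).

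H3K27ac regions no more than 12.5 kb apart were joined into 33726 stretches to describe large acetylated domains. The 337 stretches (1%) with the most acetylated bases had a median length of 57.8 kb. p-c-JUN stood in 97.6% of them and in 38.9% of all stretches, and FOXF1 in 40.4% and 6.83%. Per 100 kb of acetylated sequence the contrast was smaller, with 35.0 p-c-JUN regions against 29.8 over all stretches and 5.21 FOXF1 regions against 4.14. The stretch with the most acetylated bases, chr17:57824122-57931071, held 23 H3K27ac regions, 9 of p-c-JUN and 3 of FOXF1. The next, chr17:55926891-56032181, held 18, 4 and 0.

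Chromosome X had the lowest factor density. It carried 14 FOXF1 regions per 1231 H3K27ac regions, or 1.14 per 100, while the autosomes ranged from 3.33 (chromosome 17) to 5.16 (chromosome 4). Chromosome X was lowest in each FOXF1 list too, at 1.57 against 3.16 to 5.24 FOXF1 peaks per 100 H3K27ac peaks in the first and 6.65 against 9.34 to 14.0 in the second. p-c-JUN was at 25.5 per 100 on X and at 29.8 to 35.4 on the autosomes. In its first list these were 22.9 against 27.4 to 33.5. In the second they were 32.7 against 33.5 to 39.1, so X was only just below the lowest autosome there.

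The senescent lists show what became of these loci. They held 84864 and 60862 H3K27ac peaks, 13603 and 40537 FOXF1 peaks and 70177 and 93443 p-c-JUN peaks, so retention below is bounded by lists of other lengths. The mark was called in both senescent lists at 52.2% of all loci and in neither at 21.8%. By class, both lists held it at 83.0% of loci of all 3 antibodies, 73.9% of those of H3K27ac with FOXF1, 69.0% of those with p-c-JUN and 47.8% of those of H3K27ac alone. Within 10 classes of H3K27ac strength, retention was higher with all 3 antibodies than with H3K27ac alone in each, by 8.36 to 24.3 percentage points, and with p-c-JUN by 2.93 to 10.0 points. With FOXF1 it was higher in all 10 classes by strength and in 9 of 10 by width, where the narrowest class, with 19 loci of H3K27ac with FOXF1, was at −6.37 points.

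p-c-JUN was called again at nearly all of its loci and FOXF1 at most of its loci. The 2 senescent lists held 86.0% and 89.8% of peaks of the second proliferating p-c-JUN list, and its replicate 63.4%. For the first p-c-JUN list the shares were 90.9%, 93.0% and 82.1%. They were 48.2%, 75.3% and 24.4% for the second FOXF1 list and 65.8%, 85.4% and 78.4% for the first. For the H3K27ac lists the replicate held the larger share. Both senescent p-c-JUN lists held a peak at 51.1% of all loci and neither at 33.3%. They did so at 96.1% of loci of all 3 antibodies, 94.7% of those of H3K27ac with p-c-JUN, 93.4% of those of p-c-JUN alone and 86.9% of those of p-c-JUN with FOXF1. Both senescent FOXF1 lists held a peak at 13.4% of all loci and neither at 61.8%. They did so at 78.6% of loci of all 3 antibodies, 77.0% of those of FOXF1 with p-c-JUN, 70.8% of those of H3K27ac with FOXF1 and 63.2% of those of FOXF1 alone.

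Loci that lacked a factor in proliferating cells differed in how often they held it in senescent cells. FOXF1 appeared in both senescent lists at 20.8% of loci of H3K27ac with p-c-JUN, 8.84% of those of p-c-JUN alone and 7.52% of those of H3K27ac alone. p-c-JUN appeared at 54.6% of loci of H3K27ac with FOXF1, 34.4% of those of FOXF1 alone and 31.9% of those of H3K27ac alone. H3K27ac appeared at 14.8% to 20.0% of loci of the factors without the mark. Some of these loci already held the factor in 1 proliferating list, as counted above, so an appearance in both senescent lists is not a gain from zero.

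**Figure D5:**
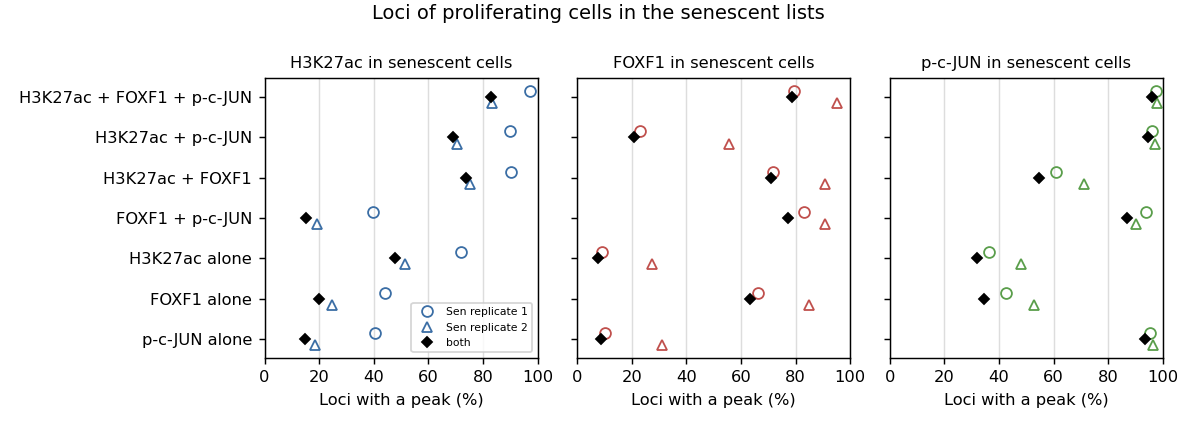
Each panel plots, for loci of each proliferating combination, the percent (horizontal axis) that hold a peak of the named antibody in the first senescent list (circles), the second (triangles) or both (diamonds). p-c-JUN stays at 86.9% or more in each class that held it, and H3K27ac descends from 83.0% at loci of all 3 antibodies to 47.8% at loci of H3K27ac alone.

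Built in the same way, the senescent landscape had other proportions. Of its 79715 loci, p-c-JUN alone made up 39.2%, against 4.53% in proliferating cells, H3K27ac alone 22.7% against 68.5%, and all 3 antibodies 8.04% against 2.51%. The lists behind these shares differ in length. p-c-JUN lists held 70177 and 93443 peaks in senescent cells, against 24808 and 32136 in proliferating cells. For H3K27ac they held 84864 and 60862 against 84304 and 89329. These class shares were not compared at equal list lengths, and the part of list length in them was not tested. The share of a FOXF1 list's peaks on p-c-JUN regions was 56.3 ± 8.99% in proliferating and 62.9 ± 7.65% in senescent cells (SD, n = 2 each), a difference of 6.59 ± 8.35 points (SE; exact two-sided permutation p = 0.667, with 0.3333 the minimum). The difference was within the spread between lists, and it turned around at equal list lengths. With 3441 FOXF1 and 24808 p-c-JUN peaks per list the share was 60.1% and 62.1% in proliferating and 49.7% and 51.7% in senescent cells, a difference of −10.4 points (exact two-sided permutation p = 0.3333).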

How the data were processed

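Deposited files were narrowPeak lists, 1 per library, of which 14 were used. Bowtie2 2.3.4.1, SAMtools 1.9, deepTools 3.1.1, MACS2 3.0.0 and build hg19 are listed, with no settings, per the submitters' processing notes. Yeast DNA was added to each library, per the labels' protocols, and whether it was used in scaling is not stated there. The deposited columns hold a display score, a fold enrichment at the summit (a ratio to local background), −log10 values of p and q, and the summit offset in bp, all made by the authors' peak caller and tested in no comparison between lists. The lowest −log10 q was 1.30 to 1.31 in the 6 proliferating lists.

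Peaks were read with Python 3.11.15, numpy 2.4.6 and pandas 2.3.3, and tests used scipy 1.17.1. Peaks on chromosomes other than 1 to 22 and X were left out (9 to 26 per proliferating list). Shared regions, loci and combinations were built as the results describe, and an overlap is at least 1 bp. Fragments at a summit were recovered as Poisson counts from the fold and p-value. Only whole counts were tried. For −log10 p below 60, a count that gave the deposited −log10 p to within 0.01 was found for 100% of peaks. A strength class orders peaks by −log10 q. Loci are named by the 3 best worst ranks of −log10 q over the lists that hold them, per combination, and additions made after the values were seen are marked. The code was tested on simulated peak lists.

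Exact permutation tests ran over libraries, and no test ran over regions. Regions, combinations and named loci were chosen with earlier results of these data known. The alternatives were a stricter q, another overlap, equal list lengths, single lists and summit windows. Nearby genes, promoters, cell type markers and sequences on hg19 were not analysed here.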

Additional observations from a re-analysis of the deposited data

How the results depend on the processing

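Most of the dependence was on the number and strength of the peaks kept per list. Alternatives that left out peaks with FOXF1 signal after siFOXF1/2, or peaks near peak-free intervals, were chosen after seeing the data and moved no count by over 1.5 times. At −log10 q of 5 or more, shared regions numbered 34990 (H3K27ac) and 1417 (FOXF1). Loci numbered 701 for all 3 antibodies, 9148 for H3K27ac with p-c-JUN, 317 for H3K27ac with FOXF1 and 24801 for H3K27ac alone. H3K27ac regions overlapped FOXF1 at 2.90% and p-c-JUN at 28.2%, FOXF1 regions overlapped H3K27ac at 71.5%, and p-c-JUN regions overlapped H3K27ac at 68.8% and FOXF1 at 6.44%. With an overlap of 50% of the shorter region, H3K27ac was found at 85.3% of FOXF1 and 80.8% of p-c-JUN regions. With both lists of an antibody at equal length, loci numbered 459 for H3K27ac with FOXF1 and 76 for FOXF1 alone, H3K27ac regions overlapped FOXF1 at 2.59% and p-c-JUN at 25.1%, and p-c-JUN regions overlapped FOXF1 at 6.90%.

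With all lists at 3441 peaks, shared regions numbered 1612 (H3K27ac) and 2677 (p-c-JUN). Loci numbered 54 for all 3 antibodies, 175 for H3K27ac with p-c-JUN, 74 for H3K27ac with FOXF1, 426 for FOXF1 with p-c-JUN, 1309 for H3K27ac alone and 1266 for FOXF1 alone. H3K27ac regions overlapped FOXF1 at 7.94% and p-c-JUN at 14.2%, FOXF1 regions overlapped H3K27ac at 7.03% and p-c-JUN at 26.4%, and p-c-JUN regions overlapped H3K27ac at 8.55% and FOXF1 at 17.9%. Summits within 200 bp gave 44.3% of FOXF1 regions on p-c-JUN. The difference between senescent and proliferating cells in the FOXF1 share on p-c-JUN became −10.4 points at equal length. By construction these alternatives keep fewer peaks.

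Next, a single list, or all lists of 1 replicate number, was left out. The peaks of an antibody's remaining list then stood as its regions, so a peak in both lists was no longer required. For regions, loci and overlaps these settings thus changed the rule and do not measure stability under it. Regions ranged from 63441 to 89329 (H3K27ac), 2695 to 11061 (FOXF1) and 20315 to 32136 (p-c-JUN). The lowest values are the main ones, from settings that kept both lists of that antibody. The highest are the peak numbers of its second list. Loci ranged from 1690 to 6440 for all 3 antibodies, 11823 to 22126 for H3K27ac with p-c-JUN, 454 to 4000 for H3K27ac with FOXF1, 129 to 515 for FOXF1 with p-c-JUN, 38829 to 70545 for H3K27ac alone, 102 to 1385 for FOXF1 alone and 2289 to 7492 for p-c-JUN alone. The main count of 1673 loci for all 3 antibodies lay below its range. H3K27ac regions overlapped FOXF1 at 2.75% to 14.4% and p-c-JUN at 20.2% to 38.1%. FOXF1 regions overlapped H3K27ac at 83.0% to 90.6% and p-c-JUN at 49.97% to 78.4%. p-c-JUN regions overlapped H3K27ac at 76.0% to 88.1% and FOXF1 at 6.61% to 27.1%. The log2 difference in peak number ranged from 1.35 to 3.04, that in width from 180 to 222 bp, and the senescent difference from 0.229 to 12.9 points.

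Replicate numbers are shared between groups without a stated pairing, and in proliferating cells the second list was the longer for each antibody. With the replicate block the differences were 2.19 (log2 peak number) and 6.59 points. Each had an exact permutation p of 0.5, the lowest that the block allows, so it could change no call. Alternatives on promoters were not run. Depth limits absence: mapped reads are unknown, so a missing peak does not show absence.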
